A study of Mus musculus with 10 samples.

Results

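The families of proteins that fuse intracellular vesicles with their target membranes were followed in brain endothelial cells (BECs) of APP/PS1 and control mice. Members were the protein-coding genes among the 14106 measured genes whose symbol, in the GENCODE M21 annotation, begins with Stx, Vamp, Snap, Syt, Cplx, Syn or Rab3 followed directly by a digit, or begins with Stxbp or Sytl. In the annotation 75 protein-coding symbols met this rule, and the 46 of them that had a value in these libraries and are reported here were the members. Read to the letter, the rule takes Rab30, Rab31, Rab32, Rab33b, Rab34 and Rab35, which are small GTPases of other membrane routes, and leaves out the vesicle GTPases Rab3a to Rab3d. One row of another gene type with such a symbol, the pseudogene Stxbp3-ps, was not a member.

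Bulk RNA of BECs was measured in 5 control and 5 APP/PS1 libraries, and all mice were female and 1 year old. APP/PS1 mice carry transgenes with familial Alzheimer mutations and deposit amyloid in the brain, and the controls, labelled WT, were of the same C3H/BL6 background. The cells were enriched from enzymatically dissociated cortex with CD31 microbeads, and the paper describes them as CD31+CD45- from flow cytometry of part of them. Neither the labels nor the methods state whether a library held 1 mouse or several. Spread and p-values therefore describe libraries, and in bulk RNA fewer cells of a type and less RNA per cell cannot be told apart.

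The deposited values were log2 CPM, that is, counts relative to the size of each library on a log2 scale, after a batch correction by the authors. Where the mean of a gene exceeded 2 log2 CPM (10873 genes), the control and the APP/PS1 library of the same replicate number nearly mirrored each other about the mean of the gene, so the 10 values of such a gene carry little more than 5 paired differences. Low members such as Snap25 and Snap91 followed this less closely. Differences are given as APP/PS1 minus control on the log2 scale, with the standard error (SE) of a linear model with genotype and replicate number as terms. Its p-values come from limma and were adjusted over all 14106 genes. The recovered totals of adjusted counts were 22993426 to 126686149 in control libraries and 22371766 to 114525432 in APP/PS1 libraries, and replicate 1 was the shallowest library of each group. Of the genes of these surface markers, Pecam1 (CD31) averaged 10.8 log2 CPM and Ptprc (CD45) 0.43. All 12 endothelial markers were measured, at mean levels between 8.90 and 12.77 log2 CPM, and their summed level was 25510 to 27650 CPM in control and 25800 to 28020 CPM in APP/PS1 libraries.

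Vesicle fusion runs on SNARE proteins. A SNARE of the VAMP family on the vesicle zips together with a syntaxin and a SNAP-family protein on the target membrane, a Sec1/Munc18 protein of the Stxbp group chaperones the syntaxin, and in regulated release synaptotagmins sense calcium and complexins hold the assembled complex ready. Neurons use their own set for synaptic vesicles, with synapsins tethering the vesicle pool, while every cell uses broadly expressed relatives for traffic between the Golgi, endosomes and plasma membrane. Endothelial cells use this machinery to release Weibel-Palade bodies, the stores of von Willebrand factor, under the control of Rab27a, Rab3d and their effectors.

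From general knowledge of the families, 11 of the 46 members were classed as neuronal, 24 as ubiquitous, and 11 as restricted to particular cells or of no settled class. The neuronal members were Cplx1, Cplx2, Snap25, Snap91, Stx1a, Syn1, Syn2, Syn3, Syt6, Vamp1 and Vamp2. The ubiquitous members were Rab30, Rab31, Rab33b, Rab34, Rab35, Snap23, Snap29, Snap47, Stx2, Stx3, Stx4a, Stx5a, Stx6, Stx7, Stx8, Stx12, Stx16, Stx17, Stx18, Stxbp2, Stxbp3, Stxbp4, Vamp3 and Vamp4. The restricted members were Rab32, Stx11, Stx19, Stxbp5, Stxbp6, Syt7, Syt11, Syt15, Sytl1, Sytl2 and Sytl4. Of the 27 symbols with no value, 13 were neuronal, among them Syt1, a calcium sensor of fast transmitter release, and Cplx3 and Cplx4. No value at hand is a statement about this table and not about the cells, because genes with low counts had been left out by the authors before deposit.

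The broadly expressed machinery was present at high levels. Compared per kilobase of exon, Vamp3, the vesicle SNARE of recycling endosomes, stood highest of the 46 members at 6.15 log2 CPM per kb, followed by the endosomal syntaxin Stx12 at 5.86. The neuronal-class Vamp2 came next at 4.88, followed by the plasma membrane syntaxin Stx4a at 4.86 and the endocytic recycling GTPase Rab35 at 4.76. The lowest members per kb were Snap91 at −4.36, the epithelial syntaxin Stx19 at −3.95 and Snap25 at −3.30. Differences between neighbours such as Vamp2 and Stx4a are small beside what an exon length fixed by annotation can resolve, and they were not tested.

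Between genotypes, no member passed an adjusted p of 0.05, and neither did any other gene, which makes the share called over all genes 0%. The smallest adjusted p was 0.537 among members and 0.195 over all genes. At an unadjusted p under 0.05, 4 of 46 members were lower in APP/PS1 libraries, which is 8.70% beside 5.91% of all genes. These were the neuronal Snap25, Cplx1 and Cplx2 and the restricted Sytl4. No member was higher at that threshold, beside 2.13% of all genes. Snap25 and Cplx2 were lower in APP/PS1 in all 5 pairs, which is 4.35% of members beside 5.00% of all genes, and none was higher in all 5, beside 2.99%. The libraries of the groups did not overlap for these same genes, with APP/PS1 the lower, beside 4.96% of all genes, and for no member with APP/PS1 the higher, beside 2.91%. Where values mirror each other within pairs, the groups separate whenever all 5 pairs share a sign. This count therefore adds little to the count by pairs. The shares with one direction in all 5 pairs thus stood close to or below those of the whole table.

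The classes differed in their counts. Among the 11 neuronal members 3 were lower at an unadjusted p under 0.05, among the 24 ubiquitous members none, and among the 11 restricted members 1. The share over all genes was 5.91%. It was 9.98% among all genes below the median level, where the 3 neuronal genes lay. Below that level were 8 of 11 neuronal and 5 of 24 ubiquitous members. Lower levels in at least 4 of 5 pairs were seen in 8 of 11 neuronal members, 5 of 24 ubiquitous members and 4 of 11 restricted members, beside 23.1% of all genes. That share was 29.63% among all genes below the median level and 16.6% among those at or above it. The 8 neuronal members included Vamp2, whose mean difference was 0.01. The median difference was −0.24 over neuronal members, −0.02 over ubiquitous members, −0.0047 over restricted members and −0.0038 over all genes. In the plot of paired differences the ubiquitous genes form a narrow column about 0, and the neuronal genes fan out to the left.

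**Figure D1:**
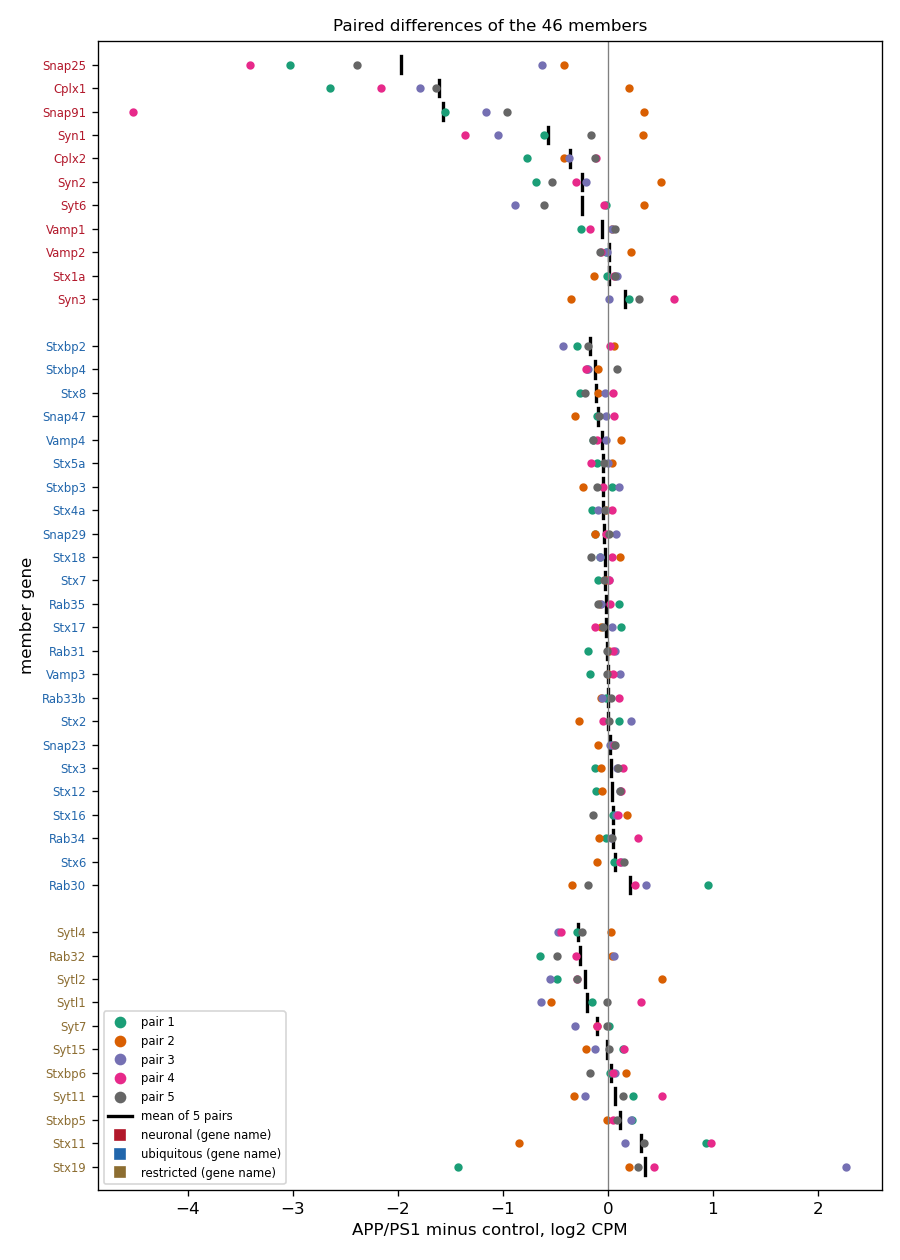
Difference between the APP/PS1 and the control library of each pair, in log2 CPM (horizontal axis), for each of the 46 member genes (vertical axis, grouped by class and ordered by mean). Points are the 5 pairs, coloured by replicate number, and black bars their means; Snap25 has all 5 points below 0 with a mean of −1.97, while 23 of 24 ubiquitous members have a mean within 0.2 of 0.

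The sign of the difference of a neuronal member went with its level, though the size did not follow the level closely. Syt6 and Snap25, at mean levels of −0.55 and −0.54 log2 CPM, differed by −0.24 and −1.97. The 8 neuronal members below the median level of all genes (4.30 log2 CPM) were all lower in APP/PS1 in the mean, with a median difference of −0.46. The 3 above it, namely Stx1a, Vamp2 and Syn3, all lay at or above 0, with a median of 0.01. Across all genes below the median level, 4313 of 7053 were lower and the median difference was −0.04, so lower values were more common than higher ones among weakly measured genes in general. Of the 1916 genes with a mean under 1 log2 CPM, 296 were lower at an unadjusted p under 0.05. Members of that kind numbered 7, of which 2 were lower at that threshold (Snap25 and Cplx1), and 6 had a negative mean difference.

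**Figure D2:**
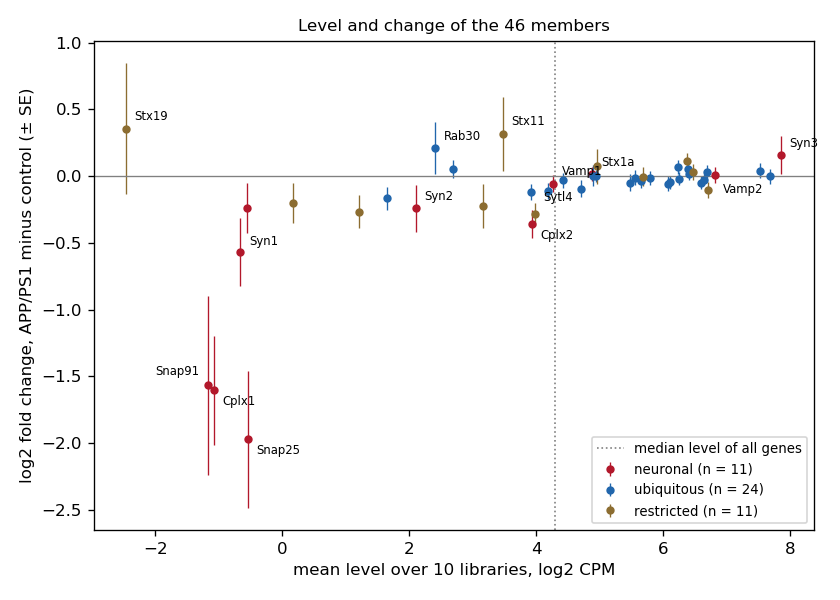
Mean level over the 10 libraries in log2 CPM (horizontal axis) and log2 fold change of APP/PS1 against control with its SE (vertical axis) for the 46 members, coloured by class. The dotted line marks the median level of all genes; the neuronal members to its left lie below 0, from −0.06 for Vamp1 to −1.97 for Snap25, and those to its right lie between 0.01 and 0.16.

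Snap25, the target-membrane SNARE of the neuronal SNAP pair (chromosome 2, 136713453 to 136782428, mm10), had the largest mean difference of the members. Its levels were 0.81, −0.09, −0.02, 0.85 and 0.68 log2 CPM in control libraries 1 to 5 and −2.22, −0.50, −0.65, −2.55 and −1.71 in the APP/PS1 libraries with the same numbers. Every control library was above every APP/PS1 library, and the distance was small in pairs 2 and 3 and large in pairs 1, 4 and 5. The means were 0.45 ± 0.46 in control and −1.53 ± 0.92 in APP/PS1 (SD, n = 5), a difference of −1.97 (SE 0.51, limma adjusted p = 0.537). The lowest adjusted count of the gene was 4, in APP/PS1 replicate 1, the shallowest library of that group. Snap23, its broadly expressed relative on the same chromosome (120567671 to 120601255), stood at 6.39, 6.45, 6.40, 6.38 and 6.38 in control and 6.43, 6.36, 6.42, 6.44 and 6.44 in APP/PS1 libraries. Those ranges overlapped, and the difference was 0.02 (SE 0.05, adjusted p = 0.955). Per kb, Snap23 was 195-fold above Snap25.

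The complexins, small proteins that bind the assembled SNARE complex before calcium triggers fusion, were both lower. Cplx2 (chromosome 13, 54371349 to 54383917) measured 4.30, 4.14, 4.12, 3.99 and 3.99 in control and 3.53, 3.72, 3.75, 3.88 and 3.87 in APP/PS1 libraries. All 5 pairs were lower, from which separate groups follow in mirrored values. The margin was wide in pair 1 and narrow in pairs 4 and 5, and the difference was −0.36 (SE 0.11, adjusted p = 0.563). Unlike Snap25, Cplx2 was measured at 255 or more adjusted counts in every library. Cplx1 (chromosome 5, 108518554 to 108550024) was named after its values were seen. It had levels of 0.09, −1.03, −0.13, −0.05 and −0.21 in control and −2.56, −0.83, −1.92, −2.21 and −1.85 in APP/PS1 libraries. Control replicate 2 fell among the APP/PS1 libraries and pair 2 ran the other way, while the differences of the other pairs lay between −2.65 and −1.64. The mean difference was −1.61 (SE 0.40, adjusted p = 0.537), with as few as 3 adjusted counts in a library.

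Stx1a and Stx4a, syntaxins of the plasma membrane, lay close to 0. Stx1a, a syntaxin of neurons and neuroendocrine cells, measured 4.89, 4.95, 4.84, 4.86 and 4.85 in control and 4.88, 4.82, 4.93, 4.92 and 4.92 in APP/PS1 libraries. The values were interleaved, with a difference of 0.01 (SE 0.05, adjusted p = 0.963). Stx4a, the plasma membrane syntaxin of non-neuronal cells, measured 6.17, 6.10, 6.15, 6.08 and 6.11 in control and 6.02, 6.09, 6.05, 6.12 and 6.09 in APP/PS1 libraries. It differed by −0.05 (SE 0.05, adjusted p = 0.855) and the groups overlapped. Per kb, Stx4a was 2.62-fold above Stx1a.

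The vesicle SNAREs lay close to 0. Vamp1 measured 4.39, 4.25, 4.25, 4.35 and 4.24 in control and 4.14, 4.28, 4.29, 4.18 and 4.30 in APP/PS1 libraries, a difference of −0.06 (SE 0.07, adjusted p = 0.884). Vamp2, the main vesicle SNARE of synapses that other secretory cells also use, measured 6.82, 6.70, 6.82, 6.85 and 6.85 in control and 6.80, 6.91, 6.81, 6.78 and 6.77 in APP/PS1 libraries, a difference of 0.01 (SE 0.06, adjusted p = 0.982). Its APP/PS1 library was the lower in 4 of 5 pairs and the higher in pair 2, by 0.22. Vamp3 measured 7.76, 7.68, 7.62, 7.66 and 7.69 in control and 7.59, 7.68, 7.74, 7.71 and 7.68 in APP/PS1 libraries, with a difference of −0.0018 (SE 0.06, adjusted p = 0.997). In all of these genes the ranges of the genotypes overlapped. Per kb, Vamp3 was 37.5-fold above Vamp1 and 2.41-fold above Vamp2.

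Stxbp3, the ubiquitous chaperone of Stx4a, measured 5.46, 5.60, 5.43, 5.51 and 5.53 in control and 5.50, 5.36, 5.53, 5.46 and 5.43 in APP/PS1 libraries, a difference of −0.05 (SE 0.06, adjusted p = 0.889). The ranges overlapped here too.

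**Figure D3:**
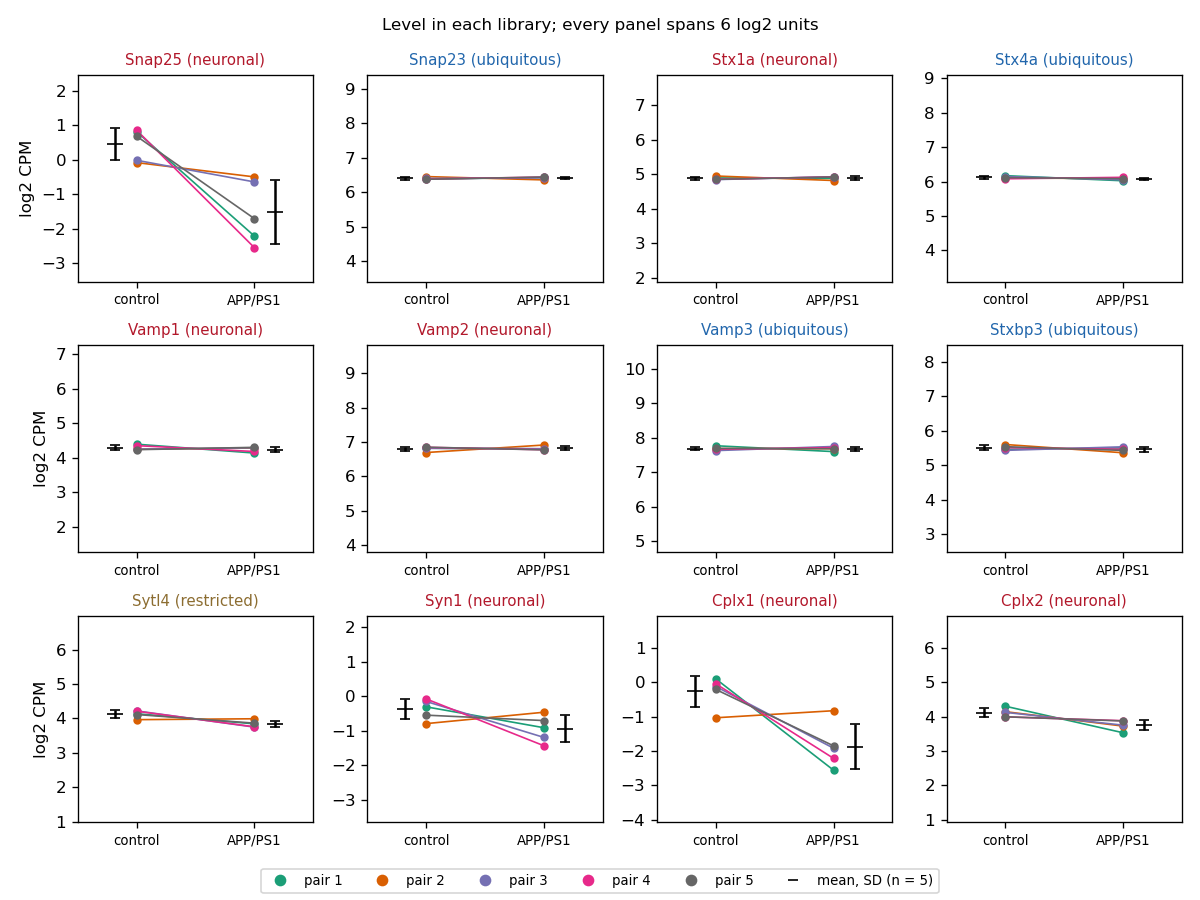
Level in log2 CPM (vertical axis) of 12 members in the control and the APP/PS1 library of each pair (points joined by a line, coloured by replicate number), with the mean and SD of each group (n = 5) beside them. All panels span the same number of log2 units, so the steep lines of Snap25 and Cplx1 and the flat lines of Snap23, Vamp2 and Vamp3 can be compared directly; the line of pair 2 rises for Cplx1 and Syn1.

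Neuronal and ubiquitous paralogs were compared within each pair of libraries by a two-sided exact sign-flip permutation test, in which 5 pairs cannot give a p below 0.0625. The difference of Snap25 lay below that of Snap23 in 5 of 5 pairs, with a mean of −1.99 (SD 1.43, exact p = 0.0625, 0.25 after adjustment over 4 gene pairs), and the pairs ranged from −3.46 to −0.32. Stx1a minus Stx4a came to 0.06 (SD 0.12, exact p = 0.3125, adjusted 0.5). Vamp1 minus Vamp3 came to −0.05 (SD 0.12, exact p = 0.375, adjusted 0.5) and Vamp2 minus Vamp3 to 0.01 (SD 0.16, exact p = 0.875). None of the 4 comparisons passed 0.05, which the design does not allow, and the last 3 spanned −0.22 to 0.22 over all single pairs of libraries.

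The remaining neuronal members are given by their differences. Snap91, a clathrin assembly protein of synaptic vesicle recycling that is no SNARE, had a mean difference of −1.57 (SE 0.67, adjusted p = 0.652), with pair 4 at −4.51, where the APP/PS1 library held 1 adjusted count, and pair 2 at 0.35. Syn1, the abundant synapsin of nerve terminals, measured −0.31, −0.79, −0.15, −0.08 and −0.55 in control and −0.91, −0.46, −1.19, −1.44 and −0.70 in APP/PS1 libraries. The groups overlapped through replicates 2 and 5. Syn1 had a mean difference of −0.57 (SE 0.25, adjusted p = 0.673) and Syn2 one of −0.24 (SE 0.17, adjusted p = 0.822). Pair 2 was positive in both, with the other pairs negative. The synaptotagmin Syt6 showed the same pattern of signs at −0.24 (SE 0.19, adjusted p = 0.835).

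Syn3 stood apart from its relatives in level and in sign. Its mean level of 7.86 log2 CPM was the highest of the members on the scale not divided by length, and its paired differences were 0.20, −0.35, 0.01, 0.63 and 0.30 (mean 0.16, SE 0.14, adjusted p = 0.845). Timp3, an inhibitor of metalloproteinases, lies inside Syn3 on the opposite strand, with 1733 bases of exon shared and a mean level of 11.56 log2 CPM. Its paired differences in the same libraries were 0.31, −0.34, 0.32, 0.64 and 0.32. How many of the reads assigned to Syn3 came from Timp3 was not tested. The overlap of Syn2 with Timp4 covers 90 bases and that of Syn1 with Araf 9 bases.

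The bases upstream of Syn1, Cplx1 and Snap91, which were among the members that were low, are printed beside those of Snap23, whose level hardly differed. Sequences are from RefSeq on GRCm38.p6 (the assembly also called mm10), 5′ to 3′ on the strand of the gene, cut where the annotated exon begins. Capitals mark 3 motifs searched on both strands, the GC box GGGCGG, the cyclic AMP response element TGACGTCA and the left arm of the repressor element RE1, TTCAGCACC. RE1 is known as the binding site of REST, a repressor of neuronal genes outside neurons. The windows were chrX:20921005-20921168 on the minus strand for Syn1, chr5:108550028-108550277 (minus) for Cplx1, chr9:86880709-86880958 (minus) for Snap91 and chr2:120567421-120567670 (plus) for Snap23.
Syn1: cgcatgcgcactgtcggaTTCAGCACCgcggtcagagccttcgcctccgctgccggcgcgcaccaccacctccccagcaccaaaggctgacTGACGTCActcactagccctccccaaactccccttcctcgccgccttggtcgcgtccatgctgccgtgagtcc
Cplx1: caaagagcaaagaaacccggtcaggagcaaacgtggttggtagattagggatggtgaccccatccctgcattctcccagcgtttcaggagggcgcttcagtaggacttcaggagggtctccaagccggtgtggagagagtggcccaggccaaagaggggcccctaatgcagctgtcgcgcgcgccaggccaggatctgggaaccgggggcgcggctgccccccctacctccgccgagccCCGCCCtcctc
Snap91: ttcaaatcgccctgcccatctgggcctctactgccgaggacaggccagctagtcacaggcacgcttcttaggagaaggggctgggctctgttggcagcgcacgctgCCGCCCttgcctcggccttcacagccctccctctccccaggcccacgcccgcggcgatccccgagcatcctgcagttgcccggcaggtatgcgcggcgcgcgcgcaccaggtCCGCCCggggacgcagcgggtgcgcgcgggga
Snap23: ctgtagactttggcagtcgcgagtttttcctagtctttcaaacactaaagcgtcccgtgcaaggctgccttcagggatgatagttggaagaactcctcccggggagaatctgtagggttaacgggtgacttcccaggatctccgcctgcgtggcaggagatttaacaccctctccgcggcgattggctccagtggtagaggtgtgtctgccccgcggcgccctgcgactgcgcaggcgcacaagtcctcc
Syn1 carried 1 RE1 left arm and 1 cyclic AMP response element, Cplx1 held 1 GC box and Snap91 2 GC boxes, each GC box on the reverse strand, and Snap23 none of the motifs. Over 32851 windows of 250 bases in the same table, 32.7% held a GC box, 1.55% the response element and 0.301% the RE1 left arm. Of 48 windows found for 39 members, 28 held a GC box, 2 the response element and 1 the RE1 left arm. By class, a GC box was in 8 of 11 neuronal, 16 of 28 ubiquitous and 4 of 9 restricted windows. The window of Cplx2, which is not printed, held none of the 3 motifs, like that of Snap23, although Cplx2 was lower in all 5 pairs. These are matches of letters, and whether they go with the differences was not tested. The table held no window for Snap25, Vamp2 or Syn3.

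Among the restricted members, the synaptotagmin-like proteins, which bind Rab27 on secretory granules, were on the lower side. Sytl4, also called granuphilin, a Rab27a effector of Weibel-Palade bodies, was named after its values were seen. It measured 4.14, 3.96, 4.22, 4.21 and 4.11 in control and 3.84, 3.99, 3.75, 3.76 and 3.86 in APP/PS1 libraries. Pairs 1, 3, 4 and 5 were lower and pair 2 was level, so the groups met at replicate 2, and the difference was −0.29 (SE 0.08, adjusted p = 0.556). Sytl2 differed by −0.22 and Sytl1 by −0.20, each lower in 4 of 5 pairs. The extremes of the class were Sytl4 and Stx19, which was higher by a mean of 0.36 with pairs from −1.43 to 2.27 and 1 adjusted count in its lowest library. Stx11, a syntaxin of immune cells and platelets, had a mean difference of 0.32 (SE 0.28), with pairs 1, 3, 4 and 5 positive and pair 2 at −0.85. The others were Stxbp5 (0.12), Stxbp6 (0.03) and Rab32 (−0.27). The synaptotagmin family was sparsely measured. Of 17 synaptotagmin symbols 4 had a value, and besides Syt6 these were Syt7, a slow calcium sensor of lysosomes and granules (−0.10), Syt11 (0.07) and Syt15 (−0.0047).

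The 24 ubiquitous members ranged from −0.17 for Stxbp2 to 0.21 for the Golgi GTPase Rab30, and their medians by pair were −0.10, −0.07, 0.03, 0.05 and −0.03. Golgi and endosomal syntaxins such as Stx5a, Stx6, Stx7, Stx8, Stx12 and Stx16 lay within −0.11 to 0.07. At the plasma membrane, Stx3 was at 0.03 (SE 0.06) and Stx2 at 0.0039 (SE 0.08). Stx17, the syntaxin of autophagosomes, was at −0.01 and its partner Snap29 at −0.04, Stx18 of the endoplasmic reticulum at −0.03, and Vamp4 of the trans-Golgi at −0.06. The syntaxin-binding proteins Stxbp2 and Stxbp4 (−0.12) and the SNAP relative Snap47 (−0.09) had the larger negative values besides Stx8. The smallest adjusted p of the class was 0.721, for Stxbp4. Exon overlap with an opposite-strand gene also touched Stx18 (908 bases with Gm42858 and 574 with Nsg1), Rab33b (661 bases with Gm38160), the neuronal Syt6 (505 bases with Atg4a-ps, which averaged 2.78 log2 CPM), Syt7 (384 bases with Gm26859), Snap47 (307 bases with Jmjd4) and Snap29 (60 bases with Pi4ka).

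The partners of the SNARE cycle were measured in lists by role. Of the proteins that take spent SNARE complexes apart, 4 of 4 were measured and none had an unadjusted p under 0.05, with Nsf, the ATPase of the reaction, at 0.01. The same held for 10 of 10 other SNAREs of the Golgi and endosomes (8 below 0, median −0.04) and for 9 of 9 exocyst subunits, the tether of vesicles at the plasma membrane (5 below 0, median −0.00063). Of docking and priming factors, 12 of 15 were measured, 9 were below 0 and 3 had an unadjusted p under 0.05, all lower, with a median of −0.19. They included Rims2, a scaffold of release sites, at −0.79 (SE 0.12, adjusted p = 0.319, lower in 5 of 5 pairs), and the Rab3 effector Rph3a at −1.93 (SE 0.43, adjusted p = 0.483, lower in 5 of 5). Unc13b, a priming factor and the most abundant gene of the list at 8.37 log2 CPM, was higher in 5 of 5 pairs, at 0.07 (SE 0.04, adjusted p = 0.779), and was named after its values were seen. Among synaptic vesicle membrane proteins, 9 of 14 were measured, 7 were below 0 and 2 had an unadjusted p under 0.05. Both were lower in 5 of 5 pairs, Scamp5 at −0.63 (SE 0.11, adjusted p = 0.368) and Syngr1 at −1.09 (SE 0.30, adjusted p = 0.537). Over all genes, 51.81% were below 0 and 5.91% were lower at that threshold. The latter share was 15.45% among genes with a mean under 1 log2 CPM, to which Rph3a and Syngr1 belong.

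The partners of endothelial secretion are given next. Rab27a, the GTPase that binds Sytl4 on Weibel-Palade bodies, was lower in 5 of 5 pairs, at −0.32 (SE 0.09, adjusted p = 0.550), and Rab3d, the one measured Rab3 paralog, likewise at −0.13 (SE 0.05, adjusted p = 0.598). They were the 2 with an unadjusted p under 0.05 among 5 measured genes of the Rab3 and Rab27 group, which listed 9. Over all genes 5.91% were lower at that threshold. The other 3 genes of the group were above 0, Rab3gap2 at 0.10, Rab3ip at 0.04 and Rab3gap1 at 0.01. The 5 genes listed for the Weibel-Palade body were all measured, 3 of them below 0. Vwf, its main cargo, was at −0.30 (SE 0.11, adjusted p = 0.581, lower in 4 of 5 pairs) and the Rab27a effector Myrip at −0.28 (SE 0.15, adjusted p = 0.754, lower in 4 of 5 pairs). The 2 genes of this list above 0 were Selp at 0.22 (SE 0.57) and Angpt2 at 0.11 (SE 0.11). None of the genes named here passed the adjusted threshold.

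Most measured markers of neurons, oligodendrocytes and astrocytes had negative mean differences, as did most neuronal members. Of 15 neuron markers 7 had a value, 6 of which were below 0 and 4 lower at an unadjusted p under 0.05, with a median of −1.04. The share lower at that threshold was 5.91% of all genes and 15.45% of genes with a mean under 1 log2 CPM. The summed level of the neuron markers was 115 to 138 CPM in control and 106 to 129 CPM in APP/PS1 libraries. Slc17a7, the vesicular transporter that defines many cortical excitatory neurons, averaged −0.85 log2 CPM. The neuron marker with the smallest p was Snhg11 (−1.85), and 8 markers, including Rbfox3, Gad2 and Slc32a1, had no value. Oligodendrocyte markers were lower in 10 of 10 measured, with a median of −1.48 and a summed level of 42.2 to 279 CPM in control and 33.9 to 143 CPM in APP/PS1 libraries, and Mag and Ermn reached 0 adjusted counts in a library. Astrocyte markers were below 0 in 9 of 9, with a median of −1.05 and sums of 140 to 174 CPM in control and 116 to 140 CPM in APP/PS1 libraries, and mural markers in 6 of 6, with a median of −0.77. Below 0 were 51.81% of all genes and 61.15% of genes below the median level. At an unadjusted p under 0.05, 7 of 10 oligodendrocyte, 3 of 9 astrocyte and 5 of 6 mural markers were lower.

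By their medians, the lists of neurons, oligodendrocytes and astrocytes and the neuronal members took the same sign in each pair. The medians of the neuronal members were −0.61, 0.20, −0.37, −0.17 and −0.16 in pairs 1 to 5. Neuron markers had medians of −1.96, 0.15, −0.76, −0.92 and −1.12, oligodendrocyte markers of −2.70, 0.65, −1.34, −1.98 and −1.55, and astrocyte markers of −2.62, 0.66, −1.65, −0.77 and −0.21. In pair 2 all of these medians were positive, and in every other pair negative. The pattern of signs was not particular to these lists. Over all 7053 genes below the median level the medians were −0.06, 0.04, −0.06, −0.05 and −0.05, smaller in size. Within a list single genes differed, and in pair 2 the APP/PS1 library was the lower for 5 of 10 oligodendrocyte markers. Summed levels, which the abundant genes of a list decide, did not all follow. The log2 ratio of the sums was 0.13 for neuron markers in pair 4, and −0.17 in pair 2 and 0.0011 in pair 5 for astrocyte markers. Stmn2, the most abundant neuron marker at 6.66 log2 CPM and named after its values were seen, differed by 0.02. Other lists had other signs. Mural markers were at −0.34 in pair 2 and at 0.07 in pair 5, microglia markers had medians of 0.39, 0.25, −0.91, 0.02 and −0.59, and oligodendrocyte precursor markers of −0.71, −0.30, −0.29, 0.04 and 0.07. What part these cells had in the values of the neuronal members was not tested.

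**Figure D4:**
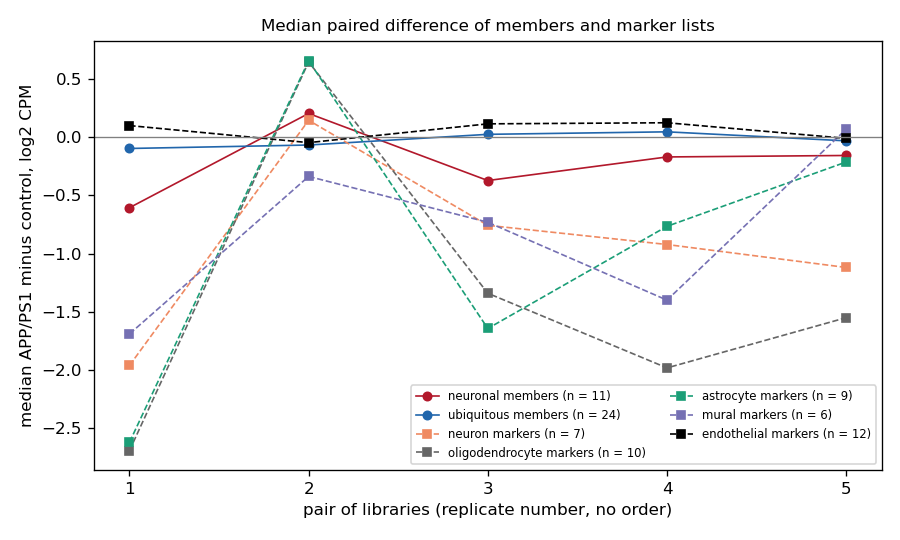
Median paired difference in log2 CPM (vertical axis) in each pair of libraries (horizontal axis, replicate numbers without order) for neuronal and ubiquitous members (solid lines) and for marker lists (dashed lines), with the number of genes in brackets. Neuronal members, neuron, oligodendrocyte and astrocyte markers lie above 0 in pair 2 and below 0 elsewhere, while ubiquitous members and endothelial markers stay near 0 in every pair.

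Replicate 2 decided several counts. Without it, 9 members were lower and 2 were higher at an unadjusted p under 0.05, in place of 4 and 0. The shares over all genes in that fit were 8.38% lower and 5.86% higher, also above those with all pairs. The 9 members were Snap25, Cplx1, Cplx2, Snap91, Syn1, Syn2, Sytl2, Sytl4 and Rab32, and the 2 were Stx11 and Stxbp5. The smallest adjusted p among members was then 0.113, for Cplx1 at −2.06. Members lower in all 4 remaining pairs numbered 11, beside 13.3% of all genes, and those higher in all 4 numbered 5, beside 11.8%. The neuronal median was −0.39.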

How the data were processed

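BECs were isolated with CD31 microbeads after myelin removal. The authors aligned reads to mm10 with STAR, counted them with HTSeq, filtered genes and took log2 CPM with edgeR, and corrected for batch with ComBat; tool versions are not given in the sources used here. The deposited log2 CPM values (14106 genes, all found in GENCODE M21) were used as they stand. They converted back to whole adjusted counts for 100% of values (tolerance 0.05, prior count 3 scaled to library size). Correction of log2 CPM would not in general leave whole counts. The order of the correction and the log2 step, given here as in the paper, was therefore not settled. Since correction had changed the reads, counting errors were not estimated.

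R 4.3.3 and limma 3.58.1 (lmFit, eBayes) were used with genotype and 5 replicate numbers as terms and Benjamini-Hochberg adjustment. The block was kept because the labels give replicates 1 to 3 a batch each (replicates 4 and 5 share one, so 4 batches in all) and because the values were centred by replicate number: paired deviations from group means had rank correlations of −0.999 to −0.989 over 10873 genes, a sign that centring fixes. The model was tested on simulated data with normal noise, which does not represent genes at single-digit counts. Level per kb divides by the union of exons.

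Values in every library are given for the genes of the paralog pairs and for up to 6 lower and 4 higher members with the smallest p among those of one direction in all 5 pairs, and 2 members met the latter rule. Certain genes that fit the rule or a list are not reported here and enter none of the counts of members or lists. Partners and markers are named by smallest p, at most 2 a list; other names were chosen after values were seen. The members and lists were chosen with earlier results of these data known. Alternatives covered the block, the 4 batches, each replicate left out, the prior count, a filter at a mean of 1 log2 CPM, a mean-variance trend, voom, size factors and the reading of the Rab3 rule.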

Additional observations from a re-analysis of the deposited data

Results flagged for a closer look

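In a search of 24 groups of 5 libraries (12 members, each genotype apart), 4 groups had a library whose gap to the nearest other exceeded Dixon's 95% limit of 0.71 of the range, where 1.2 would be flagged by chance at 1 in 20. Because the values of a pair nearly mirror each other, the groups of one gene are not independent. All 4 libraries had replicate number 2. Vamp2 stood at 6.695 log2 CPM in control replicate 2, below the other controls (6.818 to 6.85), and at 6.913 in APP/PS1 replicate 2, above the others (6.772 to 6.806). Snap23 stood at 6.357 in APP/PS1 replicate 2 (others 6.417 to 6.44), and Cplx1 at −1.035 in control replicate 2 (others −0.2128 to 0.09343).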

How the results depend on the processing

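Over the alternatives run, the direction of the neuronal median held, from −0.39 to −0.17 with one replicate left out, and it moved from −0.24 to −0.02 when genes with a mean under 1 log2 CPM were left out, which removes Snap25, Cplx1, Snap91, Syn1 and Syt6. Without the replicate block, 4 members passed an adjusted p of 0.05 by limma (Cplx1 at 0.0284, Sytl4 at 0.0328, Snap25 at 0.0352 and Cplx2 at 0.04), beside 648 of all genes (4.59%), and 11 members were lower and 1 higher at an unadjusted p under 0.05, beside 1837 and 1212 of the 14106 genes. That fit does not count the degrees of freedom taken by the centring of the pairs. With the block, no member passed under any alternative. Snap25 and Cplx2 had log2 fold changes of −1.97 and −0.36 with and without it. One member, Stxbp5, was higher at an unadjusted p under 0.05 with the 4 batches of the labels and also with a mean-variance trend. The filter at a mean of 1 log2 CPM left 2 members lower at that threshold and 1 lower in all 5 pairs. With one replicate left out, members lower at that threshold numbered 4 to 9, members higher 0 to 2, members lower in all pairs left 2 to 11 and members higher in all pairs left 0 to 5. Vamp2 minus Vamp3 ranged from −0.042 to 0.045 and changed sign without replicate 1 (−0.025) and without replicate 2 (−0.042); the cause was not tested. The difference of Snap25 was −1.85 with voom and −2.11 with a prior count of 0.125. Exchanging Rab30 to Rab35 for Rab3d left the counts within 1.5 times. With 4 residual degrees of freedom, and single-digit adjusted counts of Snap25, Cplx1 and Snap91 in some libraries, small differences of such genes were not detectable at this depth.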

Other observations

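Lists outside the SNARE cycle gave further values. Microglia markers had a value for 7 of 8 genes, of which 5 were below 0 and none had an unadjusted p under 0.05, with a median of −0.16. Oligodendrocyte precursor markers were measured for 4 of 5, with a median of −0.23 and 1 lower at that threshold, beside 5.91% of all genes. Ttr, the single measured marker of choroid plexus and ependyma of 4 listed, differed by −1.03. Nsg1, an endosomal protein of neurons that shares exon bases with Stx18 on the opposite strand, was lower in all pairs (−0.21, −0.29, −0.43, −0.22 and −0.55), with a mean of −0.34 (SE 0.07, limma adjusted p = 0.418), while Stx18 itself stood at −0.03.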
